A study of Mus musculus with 26 samples.

Results

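The genes described here are the amino acid and peptide transporters of the solute carrier families SLC1, SLC3, SLC6, SLC7, SLC15, SLC36, SLC38 and SLC43, with Slc16a10 added, measured in mouse epithelium from the proximal part of the small intestine. They were taken by gene symbol, without regard to their values. Of 20409 gene symbols listed in the 4 expression tables, 63 met the rule, and 48 of them were listed in all 4 tables. The set holds 60 transporter genes and 3 genes of the opposite strand that carry a transporter's name (Slc6a19os, Slc36a1os and Slc7a6os). The largest families were SLC6 with 19 members, SLC7 with 14 and SLC38 with 10.

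Dietary protein reaches the enterocyte as free amino acids and as short peptides. Carriers in the brush border draw them in with sodium, protons or exchanged amino acids, peptidases split the peptides, and a separate set of basolateral carriers and exchangers passes amino acids to the blood. Several carriers work as pairs of a heavy chain, which brings the complex to the membrane, and a light chain, which transports. Other members of these families feed the cell itself, empty the lysosome, or carry neurotransmitters and creatine. Enterocytes gain this absorptive equipment as they leave the crypt and move up the villus, along which bone morphogenetic protein (BMP) signals act through SMAD1, SMAD5 and SMAD4.

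Bulk polyA RNA-seq was made from whole epithelium in 4 separate experiments, with 26 libraries in 9 groups. Deletion was induced with tamoxifen through Villin-CreERT2, which is active in intestinal epithelium, and mice were killed 6 or 30 days after the first injection. The day 6 SMAD1/5 table held 3 SMAD1/5 iDKO (inducible double knockout) libraries and 3 controls given tamoxifen. The day 30 SMAD table held 2 SMAD1/5 iDKO libraries, 3 SMAD1/4/5 iTKO (inducible triple knockout) libraries and 5 controls, of which 2 came from the SMAD1/5 line with tamoxifen and 3 from the SMAD1/4/5 line with oil. The day 6 SMAD4 table held 2 SMAD4 iKO (inducible knockout) and 2 oil-treated control libraries, and the day 30 TBX3 table held 3 TBX3 iKO and 3 oil-treated control libraries. Controls lacked the Cre and received tamoxifen, or carried it and received oil. The effects of active Cre and those of the deletion therefore cannot be told apart in any table. In the SMAD4 and TBX3 tables, with oil-treated controls, those of tamoxifen cannot be told apart either. In the day 6 SMAD1/5 table both groups received tamoxifen, and the day 30 SMAD controls were of both kinds. Labels give no age, and p-values weigh a difference between groups against the spread between libraries within groups.

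Values were FPKM (fragments counted for a gene, scaled by transcript length and by library depth), normalized in each table separately, so differences were tested only within a table. A gene was tested if it reached 1 FPKM in at least as many libraries as the smallest group of its table held. Of the 63 members, 42 were tested in at least 1 comparison and 29 in all 6, while 21 were never tested. The highest value of an untested member in any library was 1.37 FPKM, for the betaine carrier Slc6a12, and Slc43a1, Slc7a11, Slc6a14, Slc15a3 and Slc38a3 were also below the filter. Depth, estimated from the FPKM value of 1 fragment, was between 21 and 30.5 megafragments a library at day 6 of the SMAD1/5 experiment, between 13.1 and 18.1 at day 30, and between 10 and 18.6 for TBX3. It could not be estimated for the SMAD4 table. Slc6a20a and Slc6a20b are near-identical paralogs, and whether fragments were counted by strand is not given in the sources used here, so the separate values of these 2 genes and of the 3 opposite-strand genes are uncertain.

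The targeted genes were checked first. Smad4 fell in the SMAD4 knockout (log2 difference -1.89 ± 0.20 standard error, SE; limma adjusted p = 0.018) and in the iTKO (-1.95 ± 0.12; limma adjusted p = 1.2e-05), and Tbx3 fell in the TBX3 knockout (-1.81 ± 0.36; limma adjusted p = 0.048). Smad1 did not pass the threshold in either iDKO or in the iTKO, and Smad5 was higher in all of them, by 0.86 to 0.96. FPKM counts the exons outside a deleted part too, so these values do not check the SMAD1/5 deletion. The 12 epithelial markers, which include the 3 defining transporters, were abundant in every library, with a summed level of 13358 FPKM or more, whereas stromal, endothelial, muscle and nerve markers (12 named, of which 6 to 11 were listed in a table) summed to 9.26 FPKM or less. The number 2 libraries of the day 6 SMAD1/5 table stood apart in Paneth cell genes, with a summed level of 76.2 FPKM in the control and 111 in the iDKO, against 3068 to 10277 in the other 4. In the SMAD4 table the number 2 libraries were also the lower ones (2343 and 2660 FPKM against 30777 and 11907), and every TBX3 library was low (82.5 to 252 FPKM).

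The carriers of the enterocyte surface were the most abundant members in control epithelium. Averaged over the control means of the 4 tables, Slc6a19, the main brush border carrier of neutral amino acids, stood at 376 FPKM, the creatine carrier Slc6a8 at 367 and the proton-coupled peptide carrier Slc15a1 at 343. The basolateral carrier of large neutral amino acids Slc43a2 (227), the heavy chain Slc3a2 (208) and the imino acid carrier Slc6a20a (168) followed, again as mean FPKM. The basolateral light chain Slc7a7 (164), the cystine and dibasic amino acid light chain Slc7a9 (159) with its heavy chain Slc3a1 (144), the light chain Slc7a8 (141), the aromatic amino acid carriers Slc16a10 (119) and Slc7a15 (106), and the proton-coupled carrier of small amino acids Slc36a1 (102) made up the rest of the members above 100 FPKM. Tables were normalized separately, and the order differed between them. Slc15a1 ranked first among the members in the day 6 SMAD1/5 and TBX3 controls and Slc6a8 in the other tables, and Slc43a2 ranked 3 in the day 30 SMAD controls and 7 to 11 elsewhere. Members that feed growing cells were lower, at 19.9 FPKM for Slc38a2, 19.4 for Slc1a5, 7.75 for Slc38a1 and 3.20 for Slc7a5, and the glycine carrier Slc6a9 stood at 1.61.

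Promoter windows were examined for short motifs of factors that act in this tissue. The RefSeq table (GRCm38.p6) held windows of 300 bases, 250 before and 50 after the start of transcription, for 47 of the 63 members and 33 of the 42 tested ones. The 250 bases before the start are printed for the 3 defining genes of the set, for Slc6a20a, which fell in all 5 comparisons of a mutant with its control, and for Slc3a1, which passed the threshold in none of them. Capitals mark motif matches on either strand, and a line with no capitals holds none of the motifs searched.
Slc15a1 (chr14:121505255-121505504, minus strand): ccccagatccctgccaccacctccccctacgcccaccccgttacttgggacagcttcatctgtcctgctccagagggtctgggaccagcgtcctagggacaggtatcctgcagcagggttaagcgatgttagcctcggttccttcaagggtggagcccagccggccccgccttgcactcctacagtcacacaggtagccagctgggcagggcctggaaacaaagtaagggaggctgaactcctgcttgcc
Slc6a19 (chr13:73692637-73692886, minus strand): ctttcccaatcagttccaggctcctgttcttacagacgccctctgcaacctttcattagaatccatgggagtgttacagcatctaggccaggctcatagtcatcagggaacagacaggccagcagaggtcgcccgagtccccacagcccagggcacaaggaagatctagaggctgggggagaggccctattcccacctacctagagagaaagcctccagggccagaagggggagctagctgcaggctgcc
Slc36a1 (chr11:55204090-55204339, plus strand): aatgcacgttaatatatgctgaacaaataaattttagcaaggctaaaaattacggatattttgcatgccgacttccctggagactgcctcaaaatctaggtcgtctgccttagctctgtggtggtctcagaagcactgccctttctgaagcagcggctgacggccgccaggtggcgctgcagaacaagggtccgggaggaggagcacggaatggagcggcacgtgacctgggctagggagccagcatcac
Slc6a20a (chr9:123678833-123679082, minus strand): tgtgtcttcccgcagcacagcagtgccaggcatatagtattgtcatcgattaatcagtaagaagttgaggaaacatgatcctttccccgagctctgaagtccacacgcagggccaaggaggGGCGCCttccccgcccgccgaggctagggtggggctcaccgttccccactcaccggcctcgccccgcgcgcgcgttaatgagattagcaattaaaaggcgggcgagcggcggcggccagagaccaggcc
Slc3a1 (chr17:85028097-85028346, plus strand): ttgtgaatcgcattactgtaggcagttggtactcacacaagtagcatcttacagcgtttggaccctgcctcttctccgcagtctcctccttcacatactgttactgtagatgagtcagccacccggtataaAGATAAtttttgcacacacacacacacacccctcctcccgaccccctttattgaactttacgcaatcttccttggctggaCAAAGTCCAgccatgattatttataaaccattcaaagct
In Slc3a1 the capitals are the GATA motif AGATAA, 119 to 114 bases before the start, and the HNF4 motif CAAAGTCCA, 39 to 31 bases before it. In Slc6a20a they are GGCGCC, a BMP-responsive SMAD element, 129 to 124 bases before the start. The 33 tested members with a window had 44 windows in all, since a gene can have several starts, and GGCGCC was in 10 of these (22.7%), against 11.9% of 32851 windows of all genes. AGATAA was in 11.4% of the members' windows and 11.2% of all, and the CDX2 motif TTTATG in 2.27% and 11.9%. The SMAD palindrome GTCTAGAC was in none of the members' windows and in 0.213% of all. The T-box motif AGGTGTGA was in 1 window, at Slc6a9 (2.27% against 1.28%), CAAAGTCCA in 1, at Slc3a1 (2.27% against 0.475%), and the ATF4 motif TGATGNAAT in none (0.965% of all). Of the members shown that passed the threshold, Slc15a1, Slc6a19 and Slc36a1 had no match and Slc6a20a had 1. Slc3a1, which was lower in each SMAD mutant without passing it (-0.23 to -0.60), had 2. A match is a description of these letters alone.

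In the SMAD1/5 iDKO at day 6, carriers fell on both faces of the enterocyte. Of 36 members tested, 12 fell (8.26% of all 10827 genes tested fell) and 3 rose (15.5% of all genes rose). The median log2 difference of the members was -0.11, against 0.18 for all genes. Of 10 villus tip markers 3 fell, while the summed level of the list was higher in the iDKO (13231 to 15984 FPKM) than in the controls (10103 to 12898). Tuft cell markers fell for 4 of 5 tested, none of 10 Paneth markers passed the threshold, and the part of these cells in the result was not tested. In bulk tissue, fewer cells of a type and less RNA per cell cannot be told apart. Slc15a1 measured 351, 374 and 358 FPKM in the controls and 77.4, 82.3 and 80.5 in the iDKO. The groups were far apart, and the mean dropped from 361 ± 11.9 (SD, n = 3) to 80.1 ± 2.48, 22.2% of control (log2 difference -2.16 ± 0.09 SE; limma adjusted p = 0.000108).

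Other apical carriers also fell. Slc6a19 measured 313, 365 and 268 FPKM in the controls and 110, 92.5 and 81.8 in the iDKO, 30.0% of control (-1.73 ± 0.16; limma adjusted p = 0.0011). Slc36a1 went from 74.9, 93.2 and 56.0 FPKM to 16.0, 22.4 and 17.8, 25.1% of control (-1.95 ± 0.21; limma adjusted p = 0.0017). In both genes every iDKO library lay below every control. The imino acid carrier Slc6a20a was at 184, 203 and 174 FPKM in the controls and at 127, 92.3 and 73.3 in the iDKO (-0.97 ± 0.20; limma adjusted p = 0.017), and the glutamate and aspartate carrier Slc1a1, of lower level, fell from 4.05 ± 1.43 to 1.57 ± 0.03 FPKM (SD, n = 3 each). Slc1a1 lost its call without any 1 of the 3 iDKO libraries or without control 3 (adjusted p 0.057 to 0.067), and Slc6a20a lost it without iDKO 2 (0.060) or without both number 2 libraries (0.092).

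The apical cystine and dibasic exchanger was lower on average but did not pass the threshold. Its heavy chain Slc3a1 measured 135, 116 and 141 FPKM in the controls and 121, 89.3 and 104 in the iDKO, with overlapping groups (-0.32 ± 0.14; limma adjusted p = 0.13). Its light chain Slc7a9 measured 117, 123 and 98.0 FPKM against 81.7, 86.9 and 91.2, with the iDKO libraries just below the controls (-0.37 ± 0.11; limma adjusted p = 0.055). The taurine carrier Slc6a6 was at 35.6 ± 5.05 FPKM in the controls and 33.3 ± 4.35 in the iDKO (SD, n = 3 each), and its groups overlapped. Scaling mattered for the exchanger: when each library was centred on its median, 15 members fell, and Slc3a1, Slc7a9 and the peptide carrier Slc15a2 were the 3 gained. Over all genes the same centring changed the calls from 1681 higher and 894 lower to 767 higher and 1193 lower.

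On the basolateral side, 5 of the 6 members tested fell (8.26% of all genes tested fell). The remaining member, Slc7a6, was at 1.18, 0.360 and 1.27 FPKM in the controls and 2.32, 1.49 and 3.00 in the iDKO. It lay above every control without passing the threshold, and passed it with the replicate block and without both number 2 libraries. Slc43a2 showed the largest fall of any member, from 106, 142 and 109 FPKM to 27.5, 23.2 and 21.7, 20.3% of control (-2.27 ± 0.15; limma adjusted p = 0.000323). Slc16a10, which lets aromatic amino acids out of the cell, measured 77.6, 88.8 and 88.9 FPKM in the controls and 28.6, 23.0 and 21.4 in the iDKO (-1.79 ± 0.13; limma adjusted p = 0.000476). The exchanger light chain Slc7a8 went from 126, 118 and 147 FPKM to 45.1, 36.4 and 39.2 (-1.68 ± 0.12; limma adjusted p = 0.000504). None of these groups overlapped. Slc3a2, the heavy chain with which Slc7a8 pairs, was at 108, 119 and 107 FPKM in the controls and at 55.0, 58.7 and 53.5 in the iDKO, 50.1% of control (-0.99 ± 0.09; limma adjusted p = 0.0010). Slc7a7, the other main light chain of the basolateral membrane, moved least, from 94.8, 100.3 and 95.4 FPKM to 70.5, 69.7 and 72.2 (-0.45 ± 0.08; limma adjusted p = 0.011).

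Among the remaining members, Slc7a15 fell from 61.2, 81.4 and 69.6 FPKM to 24.7, 19.8 and 16.5 (-1.78 ± 0.17; limma adjusted p = 0.0013). The creatine carrier Slc6a8 was at 247, 309 and 230 FPKM in the controls and at 156, 193 and 166 in the iDKO (-0.60 ± 0.15; limma adjusted p = 0.030), and it lost its call without control 1, iDKO 1 or iDKO 3. The serotonin carrier Slc6a4 was below the controls in every iDKO library but missed the threshold (-0.46 ± 0.16; limma adjusted p = 0.079). None of the 5 lysosomal and intracellular members tested passed it, among them the glutamine exporter Slc38a7 and the arginine-sensing carrier Slc38a9.

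The 3 members that rose were of low level. The glycine carrier Slc6a9 measured 0.908, 0.270 and 0.600 FPKM in the controls and 8.01, 5.28 and 7.68 in the iDKO (2.80 ± 0.26; limma adjusted p = 0.0011). It reached 1 FPKM in the iDKO libraries alone, so it could enter the test only by being high there, and 2 members rose without it. Slc38a1, a sodium-coupled carrier of glutamine, measured 5.67, 2.68 and 5.12 FPKM against 12.7, 10.4 and 13.2 (1.39 ± 0.25; limma adjusted p = 0.011). The dopamine carrier Slc6a3 measured 2.90, 3.65 and 3.40 FPKM against 8.85, 8.91 and 5.62 (1.10 ± 0.19; limma adjusted p = 0.0098). In all 3 the groups were apart, and Slc6a3 lost its call without both number 2 libraries (adjusted p = 0.050), which also left 11 members lower. With the replicate number as a block, 5 members rose, Slc7a4 and Slc7a6 in addition.

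**Figure D1:**
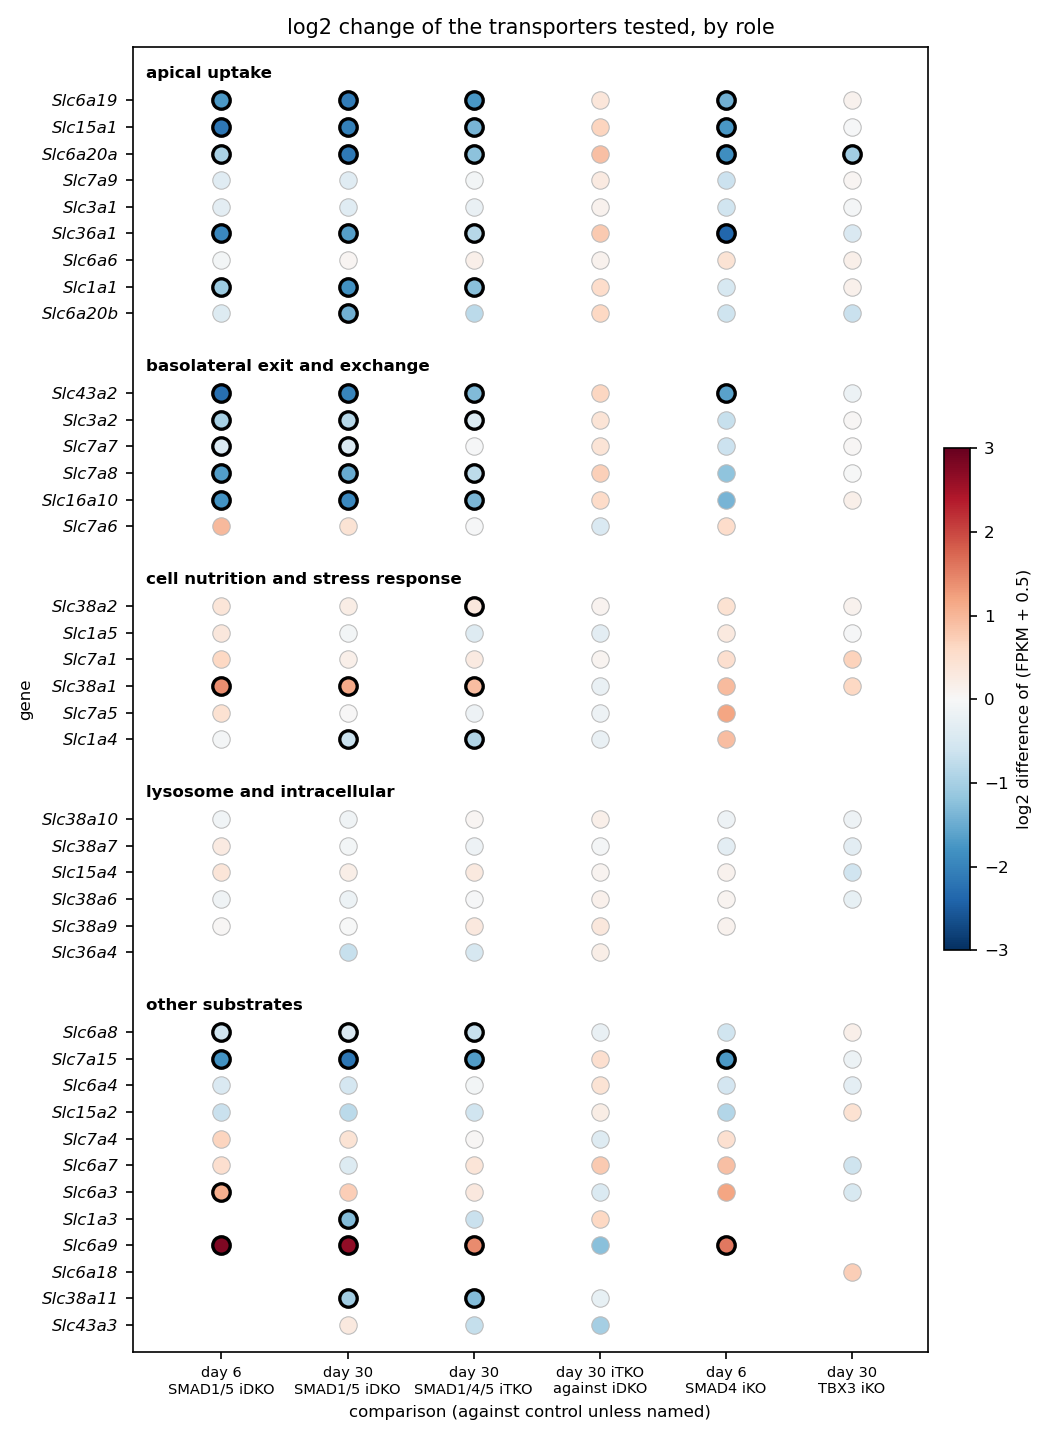
Log2 difference (colour) of each transporter tested (rows, grouped by role) in the 6 comparisons (columns), on log2(FPKM + 0.5); black rings mark limma adjusted p under 0.05 and blanks were not tested. In the 4 columns of a SMAD mutant against control, Slc15a1, Slc6a19, Slc36a1 and Slc43a2 (-2.27 at day 6) are blue and ringed, Slc3a1 and Slc7a9 are pale, Slc6a9 is red (2.80 at day 6), and the TBX3 column has 1 ring, at Slc6a20a.

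In the SMAD4 iKO at day 6, 6 of 36 members tested fell (2.14% of all 12202 genes tested fell) and 1 rose (1.28% of all genes rose). The members' median was -0.23, and that of all genes 0.03. All 6 had also fallen in the day 6 SMAD1/5 iDKO, where they were 6 of the 12. No gene of the whole table, members included, passed the threshold when any 1 of the 4 libraries was left out, a fit in which the lone library is assumed to vary like the other group. Of 10 villus tip markers 5 fell, and their summed level was 17175 to 19897 FPKM in the controls and 14558 to 14857 in the iKO. Their part in the result was not tested.

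Slc36a1 showed the largest fall, from 71.4 and 80.3 FPKM to 14.97 and 13.3, 18.6% of control (-2.38 ± 0.14; limma adjusted p = 0.011). Slc6a20a went from 136 and 190 FPKM to 44.1 and 44.3 (-1.85 ± 0.19; limma adjusted p = 0.018). Slc15a1 measured 266 and 179 FPKM in the controls and 78.7 and 53.3 in the knockout, 29.6% of control (-1.75 ± 0.27; limma adjusted p = 0.042). In each of these the knockout libraries lay below both controls. Slc6a19 measured 242 and 195 FPKM against 96.7 and 65.8 (-1.44 ± 0.23; limma adjusted p = 0.043). Slc7a15 was at 124 and 80.1 FPKM in the controls and at 34.0 and 26.0 in the knockout (-1.73 ± 0.26; limma adjusted p = 0.039).

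Of the basolateral carriers 1 of 6 tested passed the threshold (2.14% of all genes tested fell). Slc43a2 fell from 116 and 122 FPKM to 42.97 and 33.8 (-1.63 ± 0.16; limma adjusted p = 0.017). Slc16a10 measured 77.8 and 57.7 FPKM against 30.0 and 21.1 (-1.39 ± 0.24; limma adjusted p = 0.052), and Slc7a8 116 and 80.4 against 51.4 and 33.8 (-1.20 ± 0.27; limma adjusted p = 0.098). Both were lower in each knockout library than in either control without passing the threshold, as was Slc3a2, at 148 and 128 FPKM against 84.9 and 83.9 (limma adjusted p = 0.066). Slc3a1 overlapped, at 251 and 133 FPKM in the controls and 137 and 106 in the knockout. Its light chain Slc7a9 did not overlap, at 169 and 190 FPKM against 107 and 121 (log2 difference -0.65). Slc7a9 missed the threshold in the main fit and passed it with the replicate block (limma adjusted p = 0.042). Slc7a7 (-0.65) and Slc6a8 (-0.59) were likewise below both controls in each knockout library without passing in the main fit. Slc6a9 was the member that rose, from 1.42 and 1.70 FPKM to 7.05 and 4.59 (1.59 ± 0.26; limma adjusted p = 0.045). Slc7a5, a light chain that serves growing cells, stood at 3.46 and 2.10 FPKM against 6.81 and 6.79 (1.19 ± 0.25; limma adjusted p = 0.080). With no filter and without the variance trend, Slc15a1, Slc6a19, Slc7a15 and Slc6a9 lost their calls, and Slc6a9 also with quantile normalization.

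At day 30 the SMAD1/5 iDKO was compared with 5 controls. Of 39 members tested, 16 fell (9.31% of all 11939 genes tested fell) and 2 rose (9.43% of all genes rose). Of the 16, Slc6a20b and Slc38a11 were under 1 FPKM in both iDKO libraries, so they had to differ to be tested, and 14 fell without them. The members' median was -0.41 and that of all genes 0.01. The 12 members that fell at day 6 were among the 16. The 2 iDKO libraries differed from each other: the median log2 difference of the apical carriers from the control mean was -1.90 in iDKO 1 and -1.21 in iDKO 2. Without iDKO 1, 9 members fell: Slc6a8, Slc6a20a, Slc6a20b, Slc7a7, Slc7a15, Slc1a3 and Slc1a4 lost their call. With only the 2 controls of the same line, 9 fell too, and Slc38a11 lost its call in place of Slc7a15.

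The second mutant of that table, the SMAD1/4/5 iTKO, shared these 5 controls. Of the same 39 members, 13 fell (8.95% of all genes fell) and 3 rose (9.13% of all genes rose), with a median of -0.23. Slc38a11, under 1 FPKM in every iTKO library, had to differ likewise, and 12 fell without it. Of the 12 members that fell in the day 6 iDKO, 11 were among the 13. With only the 3 controls of the same line, 15 members fell, Slc1a3 and Slc1a5 in addition. Because the controls are shared, the 2 mutants are set side by side below and compared directly afterwards.

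Among the apical carriers, Slc15a1 measured 307, 335, 371, 241 and 326 FPKM in the controls, 53.9 and 104 in the iDKO and 120, 108 and 129 in the iTKO. The mean was 316 ± 48.1 (SD, n = 5) in the controls, 25% of that in the iDKO (-2.05 ± 0.22; limma adjusted p = 0.000207) and 37.8% in the iTKO (-1.39 ± 0.20; limma adjusted p = 0.0010). Every mutant library lay below every control.

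Slc6a19 measured 611, 614, 651, 443 and 562 FPKM in the controls, 89.6 and 195 in the iDKO and 222, 144 and 150 in the iTKO. It fell to 24.7% of control in the iDKO (-2.11 ± 0.27; limma adjusted p = 0.000528) and to 29.9% in the iTKO (-1.75 ± 0.24; limma adjusted p = 0.000806). Slc36a1 was at 205, 176, 158, 165 and 203 FPKM in the controls. In the iDKO it was at 41.8 and 77.6 FPKM (-1.66 ± 0.22; limma adjusted p = 0.000562), and in the iTKO at 89.2, 89.8 and 122 (-0.86 ± 0.19; limma adjusted p = 0.010). Neither gene had a mutant library within the control range.

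Slc6a20a measured 111, 118, 188, 123 and 185 FPKM in the controls, 20.3 and 48.9 in the iDKO and 85.2, 37.4 and 67.1 in the iTKO. It fell in the iDKO (-2.15 ± 0.38; limma adjusted p = 0.0030) and in the iTKO (-1.23 ± 0.33; limma adjusted p = 0.025). The iTKO call was lost without control 3, control 5, iTKO 2 or iTKO 3 (adjusted p 0.053 to 0.10), and the iDKO call without iDKO 1 (0.053) or with the same-line controls (0.052). Its paralog Slc6a20b, at 1.52 ± 0.42 FPKM in the controls, was below 1 FPKM in both iDKO libraries and was tested only through the controls. The glutamate and aspartate carrier Slc1a1 fell from 18.4 ± 3.86 FPKM (SD, n = 5) to 26.1% of control in the iDKO (-1.81 ± 0.23; limma adjusted p = 0.000443) and to 40.8% in the iTKO (-1.26 ± 0.20; limma adjusted p = 0.0018).

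The cystine and dibasic exchanger and the taurine carrier again did not pass the threshold. Slc3a1 measured 103, 116, 122, 80.5 and 108 FPKM in the controls, 71.1 and 94.4 in the iDKO and 105, 81.0 and 83.4 in the iTKO, and its groups overlapped. Slc7a9 was at 190, 226, 211, 171 and 224 FPKM in the controls, 147 and 169 in the iDKO (-0.36 ± 0.13; limma adjusted p = 0.069) and 175, 191 and 210 in the iTKO (-0.08 ± 0.11; limma adjusted p = 0.66). Slc6a6 stood at 235 ± 29.8 FPKM in the controls, 244 ± 23.2 in the iDKO and 266 ± 25.9 in the iTKO.

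On the basolateral side 5 of 6 members fell in the iDKO (9.31% of all genes fell) and 4 of 6 in the iTKO (8.95%). Slc43a2 measured 495, 654, 664, 478 and 459 FPKM in the controls, 95.4 and 199 in the iDKO and 233, 220 and 197 in the iTKO. Its log2 difference was -1.97 ± 0.25 in the iDKO (limma adjusted p = 0.000457) and -1.33 ± 0.22 in the iTKO (limma adjusted p = 0.0022). Slc16a10 went from 174, 211, 237, 167 and 251 FPKM to 41.2 and 68.6 in the iDKO (-1.94 ± 0.22; limma adjusted p = 0.000289) and to 93.9, 64.0 and 81.3 in the iTKO (-1.38 ± 0.20; limma adjusted p = 0.0010). In both genes all mutant libraries were below all controls.

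Slc7a8 measured 123, 181, 218, 155 and 216 FPKM in the controls, 43.8 and 85.0 in the iDKO (-1.51 ± 0.26; limma adjusted p = 0.0029) and 111, 89.2 and 104 in the iTKO (-0.79 ± 0.23; limma adjusted p = 0.037). The iTKO call for Slc7a8 was lost without any 1 iTKO library or without control 2, 3 or 5 (adjusted p 0.069 to 0.12). The heavy chain Slc3a2 was at 375, 452, 466, 406 and 495 FPKM in the controls, at 214 and 273 in the iDKO (-0.85 ± 0.13; limma adjusted p = 0.0012) and at 326, 332 and 310 in the iTKO (-0.44 ± 0.11; limma adjusted p = 0.021). The iTKO call for Slc3a2 was lost without any 1 iTKO library (adjusted p 0.050 to 0.089). Slc7a7 measured 265, 306, 303, 306 and 327 FPKM in the controls, 181 and 269 in the iDKO and 288, 292 and 303 in the iTKO. Its groups overlapped, and it passed the threshold narrowly in the iDKO (-0.45 ± 0.14; limma adjusted p = 0.047, lost in 14 alternatives) and not in the iTKO (-0.03 ± 0.12; limma adjusted p = 0.90).

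Of the carriers of other substrates, Slc7a15 measured 60.1, 121, 147, 77.8 and 118 FPKM in the controls, 14.9 and 31.8 in the iDKO (-2.17 ± 0.37; limma adjusted p = 0.0027) and 42.3, 23.7 and 30.0 in the iTKO (-1.67 ± 0.32; limma adjusted p = 0.0057). The controls spread widely, yet no mutant library reached them. The creatine carrier Slc6a8 was at 577, 698, 655, 516 and 683 FPKM in the controls, 405 and 505 in the iDKO (-0.46 ± 0.14; limma adjusted p = 0.041, lost in 13 alternatives, among them no filter, no trend and quantile normalization) and 414, 364 and 380 in the iTKO (-0.69 ± 0.12; limma adjusted p = 0.0032). The glutamate carrier Slc1a3 fell in the iDKO (-1.29 ± 0.35; limma adjusted p = 0.026) and did not pass in the iTKO (limma adjusted p = 0.16). None of the 6 lysosomal and intracellular members passed the threshold in either mutant.

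Slc6a9 and Slc38a1 rose in both mutants. Slc6a9 measured 2.22, 4.27, 3.99, 2.79 and 5.46 FPKM in the controls, 22.5 and 28.6 in the iDKO (2.66 ± 0.26; limma adjusted p = 9.8e-05) and 9.46, 11.1 and 10.8 in the iTKO (1.42 ± 0.23; limma adjusted p = 0.0020). Slc38a1 went from 11.2, 14.8, 14.9, 14.0 and 9.44 FPKM to 28.2 and 28.7 in the iDKO (1.14 ± 0.16; limma adjusted p = 0.00095) and to 23.9, 24.3 and 24.9 in the iTKO (0.92 ± 0.14; limma adjusted p = 0.0016). The mutant libraries of both genes lay above every control. Slc38a2, a stress-responsive relative, was at 23.2, 27.7, 21.9, 25.9 and 21.6 FPKM in the controls and 27.3, 32.6 and 31.3 in the iTKO, overlapping them (0.33 ± 0.10; limma adjusted p = 0.042), and its call was lost in most of the alternatives, such as without any 1 of controls 1, 3 and 5. The neutral amino acid exchanger Slc1a4 fell in both, from 2.71 ± 0.30 FPKM (SD, n = 5) to 1.52 ± 0.32 in the iDKO and 1.23 ± 0.15 in the iTKO.

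Other cell types moved with these groups at day 30. Beside the counts that follow, 9.31% of all genes tested fell and 9.43% rose in the iDKO. In the iTKO 8.95% fell and 9.13% rose. All 10 Paneth cell markers fell in both mutants (summed level 19713 to 28803 FPKM in the controls, 8231 to 8720 in the iDKO and 5169 to 10640 in the iTKO). Of 7 goblet cell markers tested, 6 fell in each mutant, and of 10 enteroendocrine markers 6 fell in the iDKO and 9 in the iTKO. T cell markers fell too, 7 of 8 in the iDKO and 8 of 8 in the iTKO. Villus tip markers fell for 3 of 10 genes in the iDKO and 6 of 10 in the iTKO, and villus bottom markers rose for 4 of 8 in the iTKO and none in the iDKO. The summed level of the villus tip list overlapped between the groups (12099 to 17139 FPKM in the controls, 16582 to 18669 in the iDKO, 13004 to 16716 in the iTKO), and that of the villus bottom list was 6731 to 27357, 19944 to 23742 and 33109 to 54465. Their part in the transporter changes was not tested.

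**Figure D2:**
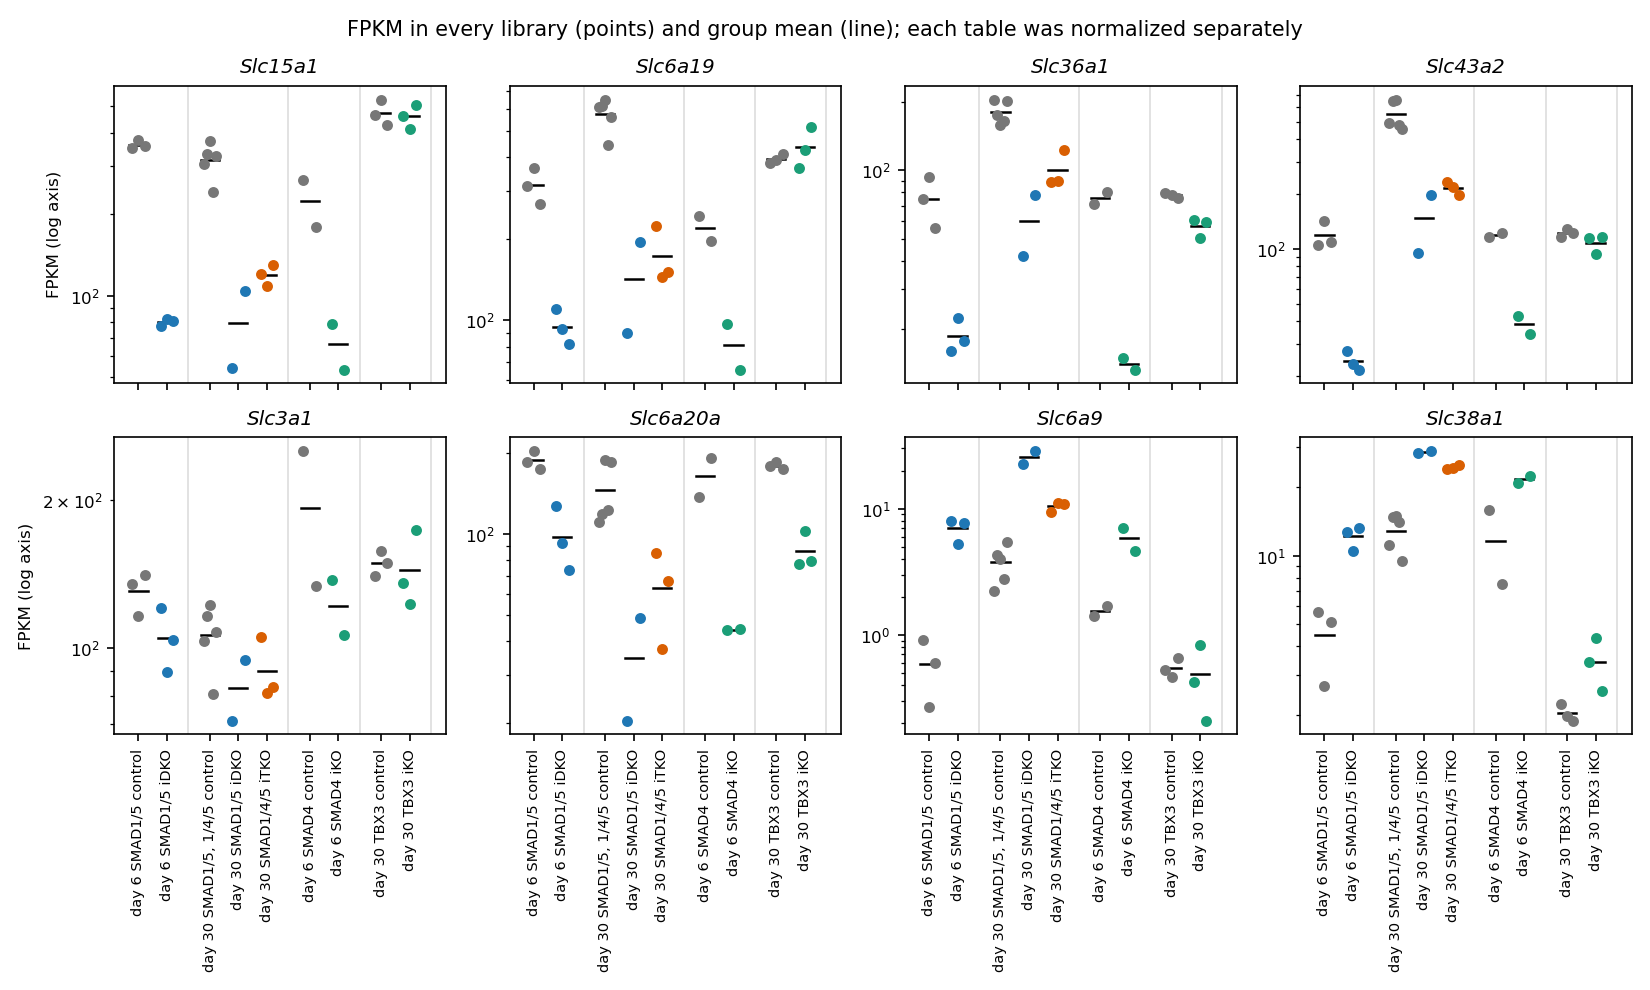
FPKM in every library (points, log axis) and group mean (line) for 8 transporters (panels) in the 9 groups (grey, control; blue, SMAD1/5 iDKO; orange, SMAD1/4/5 iTKO; green, SMAD4 iKO or TBX3 iKO). Slc15a1, Slc6a19, Slc36a1 and Slc43a2 lie below control in every SMAD mutant library, Slc3a1 overlaps, Slc6a9 and Slc38a1 lie above, and in the TBX3 iKO Slc6a20a lies at 77.5 to 102 FPKM, below its controls at 173 to 184.

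The iTKO lacks SMAD4 as well as SMAD1/5, and it was compared directly with the iDKO. The iDKO libraries came from the SMAD1/5 line and the iTKO libraries from the SMAD1/4/5 line. Mouse line and the further loss of SMAD4 therefore cannot be told apart. No member passed the limma threshold in either direction (0.218% of all genes were higher and 0.544% lower in the iTKO), whereas 11 members had an unadjusted p under 0.05, 9 of them higher in the iTKO, as did 1366 of all 11939 genes, 653 of them higher. The members' median was 0.17 and that of all genes -0.00242. Villus tip markers were lower in the iTKO for 3 of 10 genes, and their part was not tested. Slc6a9 had the smallest adjusted p, 10.4 ± 0.86 FPKM (SD, n = 3) in the iTKO against 25.6 ± 4.32 (SD, n = 2) in the iDKO (-1.25 ± 0.28; limma adjusted p = 0.085). Slc36a1 followed, at 100 ± 19.1 FPKM against 59.7 ± 25.3 (0.80 ± 0.24; limma adjusted p = 0.19), and Slc15a1 differed by 0.66 ± 0.24 (limma adjusted p = 0.31).

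These values depended on which iDKO library was kept. Without iDKO 2, 4 members were higher in the iTKO: Slc36a1 (1.24; limma adjusted p = 0.017), Slc15a1 (1.14; 0.024), Slc43a2 (1.18; 0.027) and Slc7a7 (0.70; 0.026). Calls over all genes rose in that fit from 26 higher and 65 lower to 154 higher and 165 lower. Without iDKO 1 none was, and Slc6a19, Slc3a1 and Slc7a15 changed sign. Slc6a9 passed the threshold without control 1 (limma adjusted p = 0.038) and when the compared groups were fitted alone (0.046).

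In the TBX3 iKO at day 30, 1 of 31 members tested fell (2.08% of all 9794 genes tested fell) and none rose (1.34% of all genes rose). At an unadjusted p under 0.05 limma gave 9 members, 6 lower and 3 higher, and 1696 of all genes, 1060 lower and 636 higher. Villus markers moved with the groups: the summed level of the villus tip list was 18219 to 18824 FPKM in the controls and 13405 to 16120 in the iKO, with 1 of 10 genes past the threshold, and that of the villus bottom list 3160 to 8219 and 10559 to 21666, with 1 of 8. Their part in the result was not tested. The members' median was -0.04 and that of all genes -0.06. The member that fell was Slc6a20a, which measured 178, 184 and 173 FPKM in the controls and 77.5, 102 and 79.6 in the iKO, 48.4% of control (-1.05 ± 0.13; limma adjusted p = 0.012). The groups were apart, but the call was lost without any 1 of the 3 controls (adjusted p 0.054 to 0.067), fits in which 21 to 31 of all genes fell in place of 204. Slc6a20b was at 1.61 ± 0.23 FPKM in the controls and 0.84 ± 0.16 in the iKO (SD, n = 3 each), and only the controls reached the filter.

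Slc15a1, Slc6a19 and Slc43a2, which fell in the SMAD mutants, overlapped their controls here. Slc15a1 measured 465, 530 and 425 FPKM in the controls and 462, 413 and 507 in the iKO (-0.04 ± 0.13; limma adjusted p = 0.93). Slc6a19 was at 378, 391 and 410 FPKM against 364, 422 and 514 (0.13 ± 0.14; limma adjusted p = 0.72), and Slc43a2 at 116, 128 and 122 against 114, 93.5 and 116 (-0.18 ± 0.12; limma adjusted p = 0.50). Slc36a1 was lower in each iKO library without passing the threshold, at 79.8, 77.7 and 75.6 FPKM against 60.5, 50.3 and 59.3 (-0.46 ± 0.11; limma adjusted p = 0.073).

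Of the remaining abundant members, none passed the threshold. Slc3a1 measured 140, 157 and 149 FPKM against 136, 123 and 174, and Slc7a9 131, 153 and 128 against 141, 140 and 144. Slc6a8 measured 291, 311 and 350 FPKM against 315, 337 and 437, and Slc7a15 139, 149 and 147 against 111, 153 and 127. In these genes the groups overlapped. Among the basolateral carriers Slc7a8 (179, 136 and 151 FPKM against 148, 179 and 137), Slc7a7 (122, 127 and 121 against 131, 115 and 131) and Slc3a2 (170, 126 and 136 against 140, 177 and 126) were interleaved with their controls. Slc16a10 was slightly above, at 118, 110 and 119 FPKM against 140, 131 and 125 (0.19 ± 0.09; limma adjusted p = 0.38). When libraries were centred on their median, the calls over all genes changed from 131 higher and 204 lower to 154 higher and 135 lower. The taurine carrier Slc6a6 was above its controls in each library, at 45.4, 41.8 and 45.5 FPKM against 49.6, 51.9 and 47.8 (0.17 ± 0.09; limma adjusted p = 0.42), and the serotonin carrier Slc6a4 was below its controls in each iKO library, with controls at 24.7, 24.4 and 20.5 FPKM and the iKO at 19.7, 17.1 and 19.1 (-0.30 ± 0.12; limma adjusted p = 0.24). Slc6a9 was not tested, at 0.55 ± 0.10 FPKM in the controls and 0.49 ± 0.32 in the iKO.

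**Figure D3:**
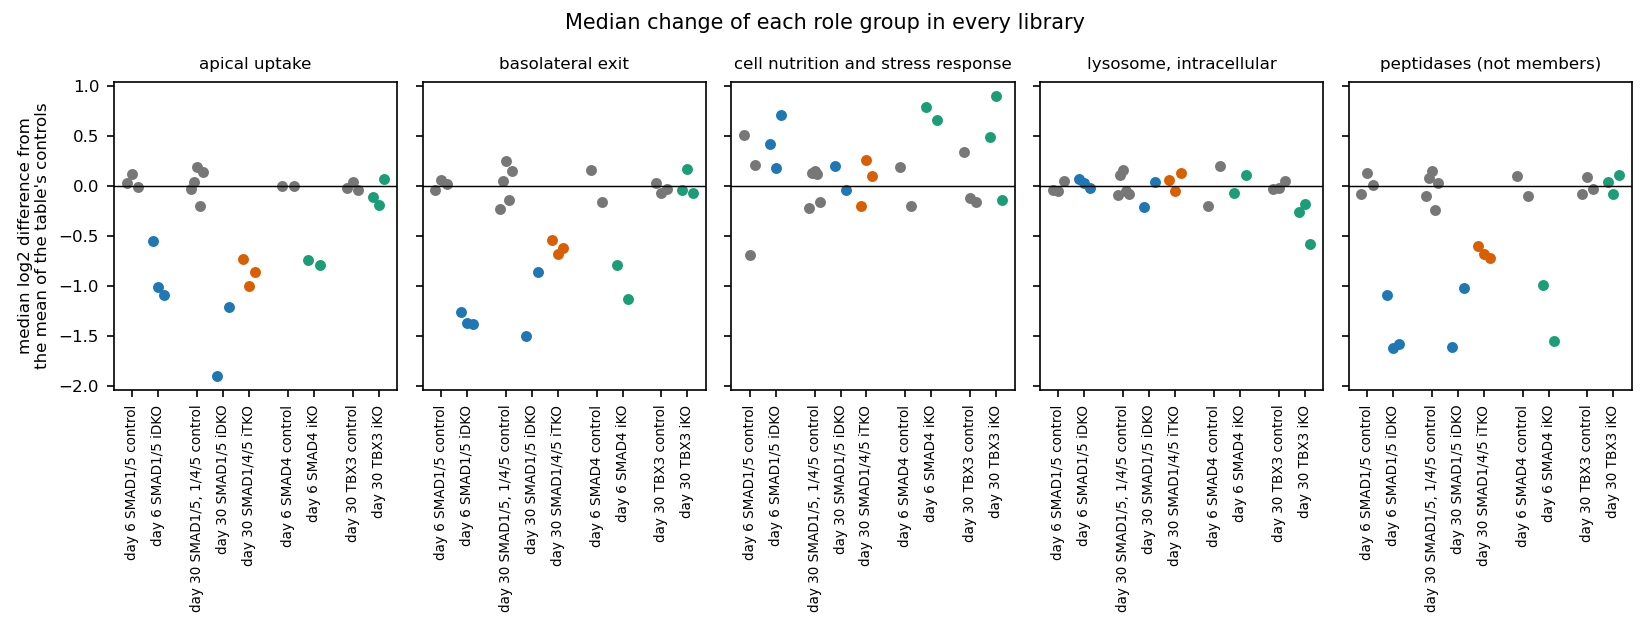
Median log2 difference of each role group from the mean of its table's controls, for every library (points; grey, control; blue, iDKO; orange, iTKO; green, SMAD4 iKO or TBX3 iKO). Apical (-0.55 to -1.90) and basolateral (-0.54 to -1.51) groups lie below 0 in every SMAD mutant library and near 0 in the TBX3 iKO, as do the peptidases.

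Grouped by role, apical carriers had the median log2 differences -0.97 in the day 6 iDKO, -1.66 in the day 30 iDKO, -0.86 in the iTKO, -0.65 in the SMAD4 iKO and -0.04 in the TBX3 iKO, over 9 members tested. Those of the basolateral carriers were -1.34, -1.18, -0.61 and -0.95 over 6 members and 0.02 over 5. Members that serve cell nutrition and stress responses had medians of 0.42, 0.09, 0.05, 0.71 and 0.37, with Slc38a1 the member that rose in all of the first 3. The lysosomal and intracellular members had none past the threshold in any comparison, with 5 tested at day 6, 6 at day 30 and 4 in the TBX3 table.

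**Figure D4:**
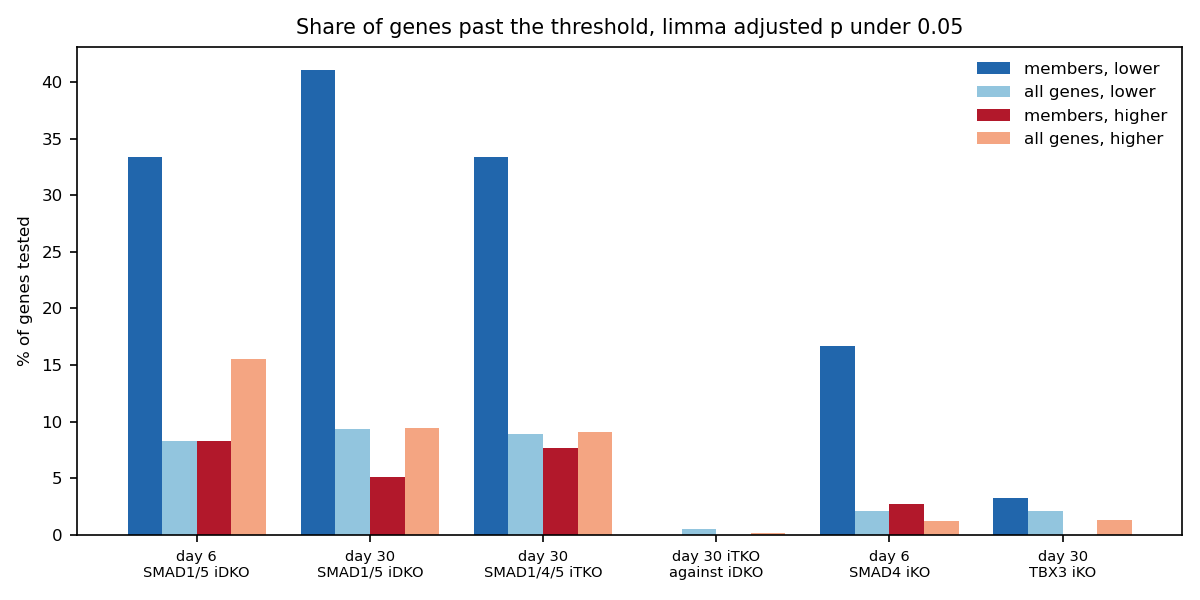
Share of genes tested that were lower (blue) or higher (red) at limma adjusted p under 0.05, for the transporters (dark) and for all genes (light) in each comparison. The transporter share that fell is above that of all genes in the day 6 iDKO (33.3% against 8.26%), the day 30 iDKO (41.0% against 9.31%), the iTKO (33.3% against 8.95%) and the SMAD4 iKO (16.7% against 2.14%), and stands at 3.23% against 2.08% in the TBX3 iKO.

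Peptidases that make the substrates of these carriers moved beside them. Of 16 tested, 14 fell in the day 6 iDKO, 13 in the day 30 iDKO, 8 in the iTKO and 8 in the SMAD4 iKO. Of all genes tested, 8.26%, 9.31%, 8.95% and 2.14% fell there. The cytosolic dipeptidase Cndp2 fell by 1.95 ± 0.13 on the log2 scale in the day 6 iDKO, and the brush border dipeptidyl peptidase Dpp4 by 1.92 ± 0.09. In the TBX3 iKO 1 rose (1.34% of all genes rose), the aminopeptidase Enpep (0.71 ± 0.09, limma adjusted p = 0.013).

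Partners that hold carriers at the membrane or maintain the sodium gradient also moved. In the day 6 iDKO 5 of 7 tested fell (8.26% of all genes fell) and in the day 30 iDKO 5 of 6 (9.31%). In the iTKO 3 of 6 fell (8.95%) and 1 rose (9.13% of all genes rose), and in the SMAD4 iKO 2 of 7 fell (2.14%). The scaffold Pdzk1 differed by -1.93 ± 0.15 in the day 6 iDKO, -1.81 ± 0.21 in the day 30 iDKO, -1.09 ± 0.18 in the iTKO and -2.04 ± 0.18 in the SMAD4 iKO. Carriers of sugars, lipids, vitamins and nucleosides were set beside the amino acid carriers. Of 16 tested, 11 fell in the day 6 iDKO, 9 in the day 30 iDKO, 7 in the iTKO and 6 in the SMAD4 iKO. Others rose, 2 in the day 30 iDKO, 3 in the iTKO and 1 in the SMAD4 iKO (9.43%, 9.13% and 1.28% of all genes rose). In the TBX3 iKO 3 of 15 fell (2.08% of all genes fell).

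Genes of the ATF4 amino acid response went both ways: 4 rose and 3 fell of 13 in the day 6 iDKO, 2 rose and 3 fell of 14 in both day 30 mutants, 2 rose of 14 in the SMAD4 iKO, and 1 rose and 1 fell of 10 in the TBX3 iKO. In the day 6 iDKO Ddit4 rose by 2.51 ± 0.22 and Trib3 fell by 1.74 ± 0.24. Among 17 transcription factors of the enterocyte, 5 rose and 5 fell in the day 6 iDKO, 3 and 5 in the day 30 iDKO, 2 and 3 in the iTKO, none and 3 in the SMAD4 iKO and 1 and 1 in the TBX3 iKO. For both lists the shares of all genes tested are the measure to set beside these counts. In the day 6 iDKO 15.5% of all genes rose and 8.26% fell, in the day 30 iDKO 9.43% and 9.31%. In the iTKO 9.13% rose and 8.95% fell, in the SMAD4 iKO 1.28% and 2.14%, and in the TBX3 iKO 1.34% and 2.08%. Maf fell in each SMAD mutant, from -1.29 ± 0.10 in the iTKO to -2.41 ± 0.13 in the day 6 iDKO. Tbx3 fell in each of them too, from -1.67 ± 0.14 in the SMAD4 iKO to -2.34 ± 0.10 in the day 6 iDKO.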

How the data were processed

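Whole small-intestinal epithelium from mice gave 26 polyA RNA libraries, held in 4 tables. Per the submitters' processing notes, reads were handled with HISAT2 2.2.1, Subread and featureCounts 2.0.1. Both GRCm39 and mm10 are named there, with no role given to either. The authors deposited FPKM per gene, normalized within each table, and the exact formula and strand setting are not given in the sources used here. Genes that overlap on opposite strands may therefore share reads. Depth was estimated from the spacing of low FPKM values and is unknown for the SMAD4 table, and it limits the precision of low members most.

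Members were taken by symbol. Repeated symbols (34 in the day 6 SMAD1/5 table and 9 in the TBX3 table, none a member) were kept once. Differences were tested with limma 3.58.1 (R 4.3.3; lmFit, eBayes with trend) on log2(FPKM + 0.5), so a fold change of a low gene is understated. Genes needed 1 FPKM in as many libraries as the smallest group, p-values were adjusted by Benjamini-Hochberg over all genes tested, and the threshold was 0.05. The day 30 SMAD table was fitted with all 10 libraries. The fit was also run on simulated data without the filter, with changes planted only in genes above a set control level. That run does not check the calls of the lowest members. Alternatives were pseudocounts of 0.1 and 1, no filter or one of 5 FPKM, median centring, quantile normalization, no trend, a replicate block, other sets of controls or groups, and leaving out libraries.

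The main fits did not pair libraries, and the replicate block was only an alternative. In the day 6 SMAD1/5 table, residuals of same-numbered control and iDKO libraries correlated at 0.143, 0.583 and 0.221. Control 1 with iDKO 3 (0.366) and control 3 with iDKO 1 (0.253) correlated more than control 1 and control 3 with their own numbers. The labels do not say that equal numbers are pairs, in that table or in the others. Values in every library were given for the 3 defining genes, the 12 members of highest control level, and the 4 largest rises and falls past the threshold in each comparison. Members, lists and tests were chosen with earlier results of these data known.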

Additional observations from a re-analysis of the deposited data

Results flagged for a closer look

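In the 5 control libraries of the day 30 SMAD table, 39 members were tested for a library far from the others, and 2 stood out, both in control 1. The lysosomal glutamine exporter Slc38a7 measured 8.14 FPKM there and 12.8 to 14.4 in the other controls. Slc43a3, a nucleobase carrier, measured 2.87 FPKM there and 0.369 to 0.674 in the others. Chance flags about 1 in 20 such groups. Neither gene passed the threshold in a comparison that tested it.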

How the results depend on the processing

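The falls of Slc15a1, Slc6a19, Slc36a1, Slc43a2, Slc16a10, Slc7a8, Slc7a15, Slc3a2 and Slc7a7 and the rise of Slc38a1 at day 6 of the SMAD1/5 iDKO held under each alternative run. The member median moved there from -0.11 to -0.41 with the stricter filter and -0.28 with median centring. With the replicate block, 5 members rose at day 6, and no other call changed there. In the other tables the replicate block left 8 members lower in the day 30 iDKO, 8 in the iTKO and 0 in the TBX3 iKO. It gave 11 lower and 2 higher in the SMAD4 iKO, and turned Slc7a7 in the iTKO to 0.0162. Same-line controls left 9 lower in the day 30 iDKO. Fitting the compared groups alone gave 1 lower in the iTKO against the iDKO. In the SMAD4 iKO, 0 members rose with no filter, the stricter filter, quantile normalization or no trend, 3 fell with no filter and 3 with no trend, and the median was -0.58 with the stricter filter and -0.11 without both number 2 libraries. In the TBX3 iKO, 2 fell with no trend. Leaving out 1 library gave 9 to 17 lower in the day 30 iDKO, 0 to 4 higher and 0 to 1 lower in the iTKO against the iDKO, 0 in both directions in the SMAD4 iKO (0 over all genes too), and 0 to 1 lower in the TBX3 iKO. The member median then ranged from -0.350 to -0.186 in the iTKO, from 0.0947 to 0.325 in the iTKO against the iDKO and from -0.175 to -0.0536 in the SMAD4 iKO. Signs changed in the iTKO against the iDKO without iDKO 1, against without iDKO 2 (Slc6a19 -0.205 and 0.911, Slc3a1 -0.0820 and 0.325, Slc7a15 -0.0320 and 1.04). They changed in the TBX3 iKO with median centring (Slc15a1 0.0201, Slc7a8 0.0516), with quantile normalization (Slc7a7 -0.0183) and when 1 library was left out (ranges: Slc15a1 -0.112 to 0.0472, Slc7a8 -0.115 to 0.0994, Slc7a7 -0.00954 to 0.0888, Slc3a2 -0.111 to 0.154, Slc3a1 -0.2001 to 0.0493, Slc6a19 -0.00108 to 0.246). Apart from fewer genes or libraries, the cause of these changes was not tested.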
